A study of Homo sapiens with 8 samples.

Results

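The genes described here encode the initiation and elongation factors of cytosolic translation, with the enzymes and divergent transcripts that share their names. Members were chosen by name: a peak in either m6A peak list whose gene symbol starts with EIF or EEF followed by a digit, leaving out the Argonaute genes EIF2C1 to EIF2C4 and symbols ending like those of pseudogenes. This rule took 71 of the 28949 peaks of both lists, in 30 of the 10577 genes with a peak. The control list held 40 of these peaks in 28 genes, of 15730 peaks in 9971 genes. The DF2 siRNA list held 31 in 25 genes, of 13219 peaks in 8556 genes. The rule used names and no measured value.

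Translation starts when the cap of an mRNA is bound by the EIF4F complex, which brings in the small ribosomal subunit with EIF3 and the initiator tRNA carried by EIF2. The subunit scans for a start codon, the large subunit joins, and the EEF factors then deliver tRNAs and move the ribosome along. N6-methyladenosine (m6A) is a methyl mark inside mRNA, often found near stop codons, and the EIF3 complex has been described as a binder of m6A in 5′ UTRs. Antibodies against m6A also recognise m6Am, a modified adenosine next to the cap, so a peak over a transcript's first bases can contain either mark.

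All libraries came from U2OS cells, a human osteosarcoma line, and used cytoplasmic RNA broken into fragments of about 100 nt. The 4 groups had 2 libraries each: Input_control and m6A-IP_control from control cells, and Input_DF2 siRNA and m6A-IP_DF2 siRNA from cells given siRNA against YTHDF2 (DF2), a cytoplasmic m6A reader that directs bound mRNAs to decay. The DF2 siRNA libraries are numbered #1 and #2, and the labels do not say whether these are different siRNAs or separate cultures. Each condition has 1 peak list for both of its immunoprecipitates, so every value below is 1 value per condition, there is no replicate check, and no test of a difference between conditions was made. Read depth is unknown. YTHDF2 itself held 1 peak in each list, at a fold enrichment of 124 in the control list and of 52.3 in the other; a peak list measures neither its mRNA level nor markers of the cell line. Each peak has a deposited fold enrichment, a deposited −log10 value (p-value for control, FDR for DF2 siRNA) and a deposited score, whose meaning the sources used here do not give. These are the authors' values, and they are set side by side without a ratio between the lists.

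For 7 factor genes, the first 30 transcribed bases from a RefSeq start lay wholly inside a peak, among the starts whose sequence was used here. They are shown because these starts fall inside peaks called from the m6A immunoprecipitates. The peaks are much longer than the 30 bases, so they do not show which bases the antibody bound. The sequences are from RefSeq (GRCh38.p14), 5′ to 3′ on the gene's strand. The capital at the left is the first transcribed base, and the other capitals are the letters GGAC, the core of the m6A motif.
EIF1AX (chrX:20141809-20141838, minus strand, control peak): GccatttgctgccgccgagcgtGGACgcag
EIF3J (chr15:44537147-44537176, plus strand, peaks in both lists): Aactcctcgctagctctccctctcacacac
EIF4E (chr4:98929104-98929133, minus strand, peaks in both lists): Gtgcgatcagatcgatctaagatggcgact
EIF4E2 (chr2:232550689-232550718, plus strand, control peak): Actccctgaggcagtggcgacagcggcggc
EIF4G2 (chr11:10808897-10808926, minus strand, DF2 siRNA peak): Gccagcagtgagtcggagctctatggaggt
EIF5 (chr14:103334237-103334266, plus strand, DF2 siRNA peak): Agtcagagcgagaacattccagaggtgagt
EIF5B (chr2:99337389-99337418, plus strand, peaks in both lists): Acaccatatgtgtcctgttccagtgcgcgg

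The first base was A in 4 of these 7 sequences and G in the other 3. Only EIF1AX had GGAC, starting at position 23 counted from the first transcribed base. Over all 9 start windows touched by a member peak (250 bases before to 50 after a start, with EIF3B and EIF5A added to the 7), the first base was A in 5, or 55.6%. It was A in 50.1% of the 22199 windows of RefSeq protein-coding genes. The letters GGAC stood in the first 50 transcribed bases of 1 of the 9 windows on the gene's strand and of 2 on the opposite strand. The shares over all windows were 19.8% and 18.8%. Over all 72 start windows of the member genes, with or without a peak, the first base was A in 24 (33.3%), and GGAC stood on the gene's strand in 16.7% and on the opposite strand in 16.7%. A match describes letters only.

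A peak in at least 1 list was found for 28 of the 66 RefSeq protein-coding genes that carry such names, 42.4% (exact binomial 95% interval 30.3 to 55.2%). Of all 20037 RefSeq protein-coding genes, 8457 had one, or 42.2%. The factor genes therefore had a peak about as often as protein-coding genes in general. Cytosolic ribosomal protein genes had one in 25 of 89 cases (28.1%, interval 19.1 to 38.6%), and mitochondrial ribosomal protein genes in 47 of 77 (61%, interval 49.2 to 72%). The interval of the factor genes overlapped both, and no test was made. Intervals cover counting error only, and an unexpressed gene cannot give a peak, so genes without one may lack the mark or the RNA.

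**Figure D1:**
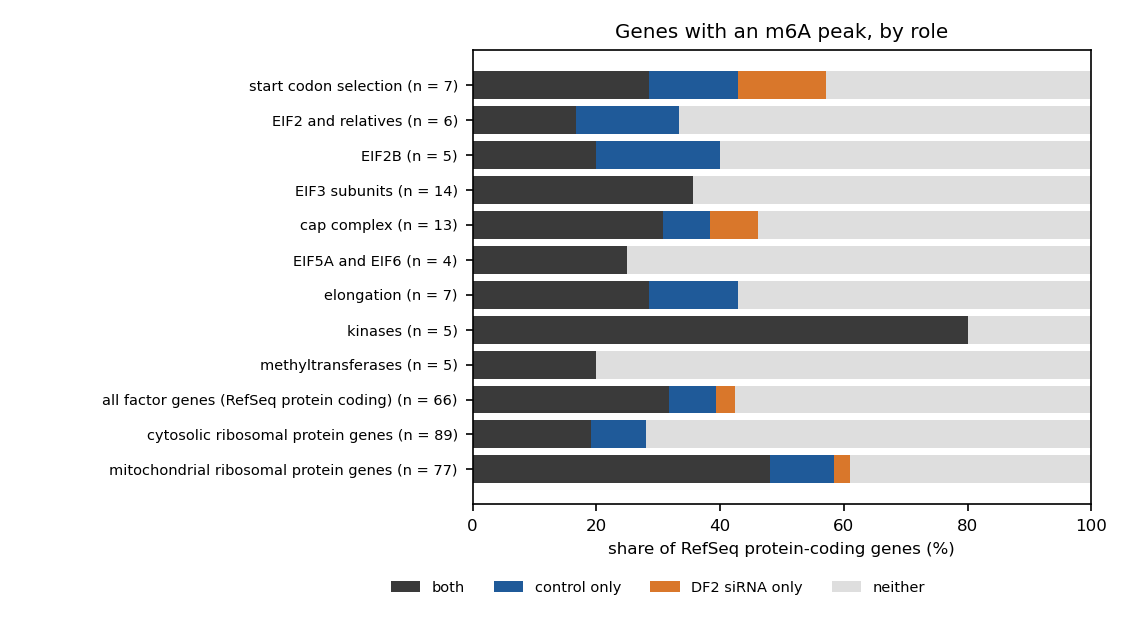
Share of RefSeq protein-coding genes with a peak in both lists, in the control list only, in the DF2 siRNA list only or in neither (% of genes, number of genes in brackets), for each role and for the ribosomal protein genes. The kinases had a peak in 4 of 5 genes, all in both lists, and the EIF3 subunits in 5 of 14. Of all RefSeq protein-coding genes, 42.2% had a peak in at least 1 list.

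Of the 30 member genes, 23 had a peak in both lists, 5 had one in control alone and 2 had one in DF2 siRNA alone. Control-only genes made up 17.9% (interval 6.06 to 36.9%) of the 28 in the control list, against 20.3% of all genes of that list. DF2 siRNA-only genes made up 8% (0.984 to 26%) of 25, against 7.08% of all. Both shares were near the background of their list. Peak by peak, 28 of 40 control peaks (70%, 53.5 to 83.4%) shared a base with a DF2 siRNA peak, against 71.9% of all control peaks. In the other direction the share was 28 of 31 (90.3%, 74.2 to 98%), where the whole list had 87.5%. The 28 overlapping pairs had the same interval to the base in 14 cases, in 8 the control peak was wider, and in 5 the DF2 siRNA peak was wider.

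By fold enrichment, the genes found in 1 list ranked at or below about the middle of that list, the highest being EIF4E2 at percentile 50.3. By score, 4 of the 7 ranked above the middle: EIF2S2 (percentile 72.3), EIF4G2 (71.8), EEF1A1 (68.3) and EIF1AX (67.0). In the 5 control-only genes the best fold enrichment ran from 11.0 to 21.0 (median 12.6), and in the 23 shared genes the control values ran from 9.75 to 68.6 (median 29.1). The 2 DF2 siRNA-only genes stood at 8.92 and 10.5, and the shared genes at 10.9 to 100.2 in that list (median 22.6). All 3 DF2 siRNA peaks without a control counterpart, those of EIF5, EIF4G2 and EIF3B, were labelled 5′ UTR without stop codon. Among all unmatched DF2 siRNA peaks that share was 37.1%. Of the 12 unmatched control peaks, 2 had such a label (all unmatched control peaks, 17.7%) and 6 lay in the 3′ UTR only (all, 19.6%), 2 of these 6 in EIF3F.

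**Figure D2:**
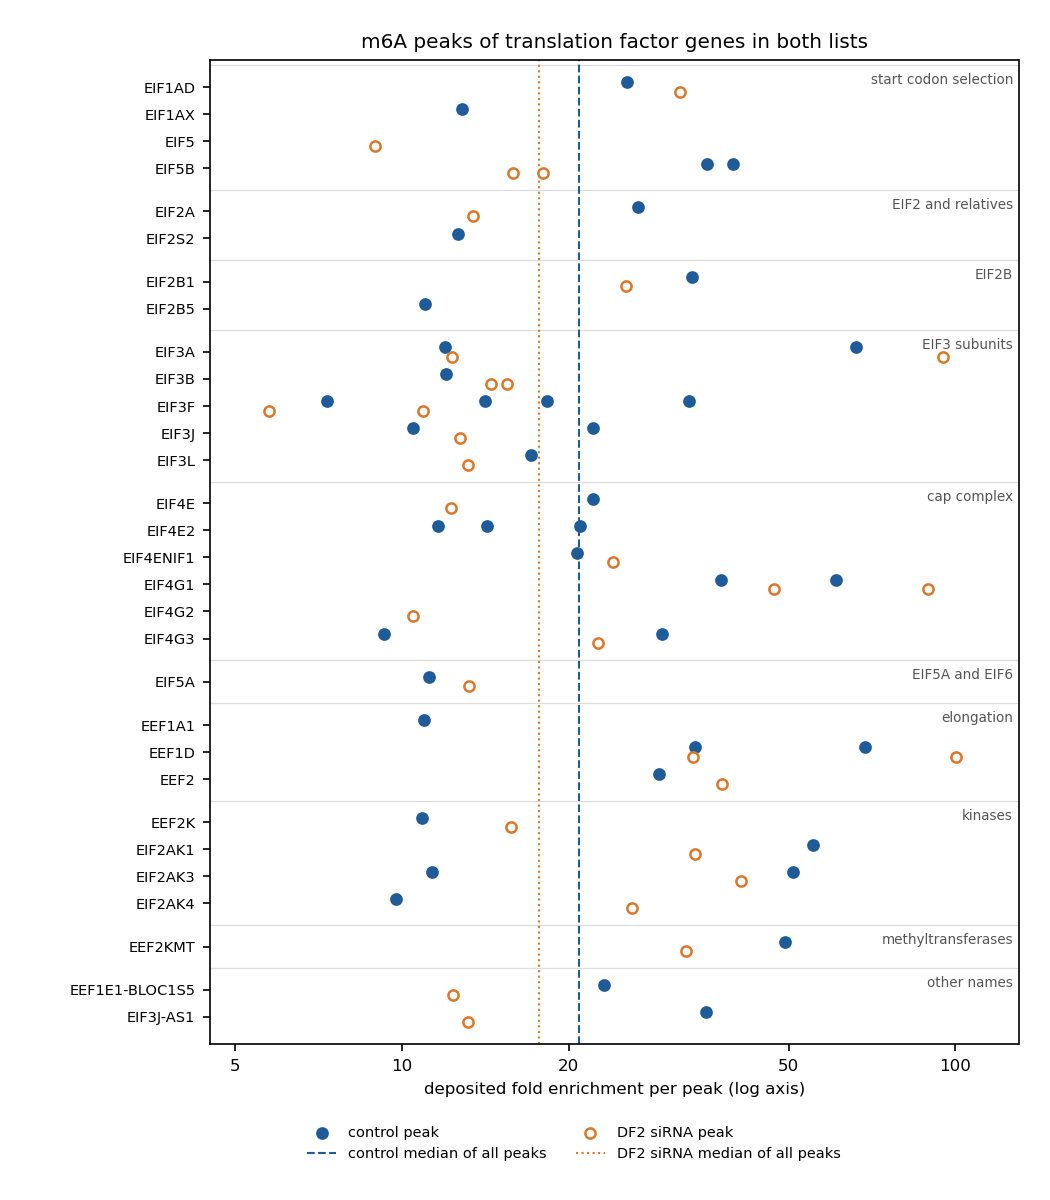
Deposited fold enrichment of each member peak (log axis), with genes grouped by role. Filled points are control peaks, open points are DF2 siRNA peaks, and the dashed and dotted lines are the medians of all peaks in the control list (20.8) and the DF2 siRNA list (17.7). EEF1D, EIF3A and EIF4G1 hold the 3 rightmost points in both lists.

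The class called start codon selection takes in EIF1, EIF1A, EIF5, EIF5B and genes of related name, whatever their exact role. In it 4 of 7 genes had a peak, EIF5B, EIF1AD, EIF1AX and EIF5. EIF5B, the GTPase that joins the large ribosomal subunit to the initiation complex, had the same 2 peaks in both lists, base for base. Its 5′ peak (chr2:99337353-99363723, 1200 nt, labelled 5′ UTR and coding) had a fold enrichment of 39.6 (−log10 p 9.02) in control and of 18.0 (−log10 FDR 3.14) in DF2 siRNA. These values stood at percentiles 72.5 and 50.6 of their lists, and the scores were 1797 and 292. Its 3′ peak (chr2:99399135-99399843, 600 nt, coding, stop codon and 3′ UTR) had 35.6 and 15.9, with scores of 1261 and 282. Peak blocks thus lie at both ends of the gene in both lists. Those of the 5′ peak reach 41.2% of the RefSeq span, introns included, with a midpoint at 37.4%. Its fold enrichment belongs to all its blocks and not to the start alone.

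EIF1AX, the factor that opens the small subunit for scanning, had 1 peak in control only, chrX:20141645-20141844, 200 nt of 5′ UTR. Its fold enrichment was 12.8 (percentile 30.4), its −log10 p 2.04 and its score 324. EIF5, which makes EIF2 hydrolyse GTP at the start codon, showed the opposite presence, with 1 peak in DF2 siRNA only. That peak (chr14:103334082-103334481, 400 nt, 5′ UTR) had a fold enrichment of 8.92 (percentile 16.4), a −log10 FDR of 1.41 and a score of 38. Both lie over the start sequences shown above. The smallest −log10 value in either list was 1.30.

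EIF1AD, named for a domain like that of EIF1A, had a stop codon peak in both lists with fold enrichments of 25.5 in control and 31.8 in DF2 siRNA (chr11:65998072-65998671 in DF2 siRNA, 600 nt). The −log10 values were 5.83 and 7.80, the scores 395 and 183, and the percentiles 57.4 and 72.4. EIF1 and its paralog EIF1B had no peak in either list.

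EIF2, the carrier of the initiator tRNA, was represented by its beta subunit gene only, EIF2S2, with 1 control peak (chr20:34089354-34090564, 600 nt, coding and 3′ UTR). That peak had a fold enrichment of 12.6 (percentile 29.9), a −log10 p of 2.04 and a score of 416 (percentile 72.3). No peak was listed for EIF2S1, EIF2S3, its copy EIF2S3B or EIF2D. EIF2A, a separate initiator tRNA binding protein, had the same 400 nt interval in both lists, with fold enrichments of 26.7 and 13.4.

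EIF2B exchanges the GDP on EIF2 for GTP and is the complex blocked when EIF2 is phosphorylated. EIF2B1, its alpha subunit, had peaks at its 3′ end in both lists, at 33.4 in control (800 nt, including the stop codon) and 25.4 in DF2 siRNA (600 nt, 3′ UTR only). EIF2B5, the catalytic epsilon subunit, had 1 control peak (chr3:184136708-184137107, 400 nt) at 11.0 (percentile 23.3), with a −log10 p of 1.77 and a score of 83. That peak is labelled coding, stop codon and 3′ UTR although its midpoint lies at 15.6% of the gene's RefSeq span. EIF2B2, EIF2B3 and EIF2B4 had no peak.

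The EIF3 complex was marked in 5 of 14 genes, EIF3A, EIF3B, EIF3F, EIF3J and EIF3L, all present in both lists. EIF3A, its largest subunit, had one of the highest-ranking peaks among the factors. That peak, chr10:119035771-119042702, spans 11 blocks and 1600 nt through coding sequence, stop codon and 3′ UTR, with the same limits in both lists. Its fold enrichment was 66.2 (percentile 87.2) in control and 95 (percentile 96.7) in DF2 siRNA, with −log10 values of 14.9 and 21.9. Its scores of 7927 and 4506 stood at percentile 99.9 in each list. A second, 301 nt peak at the far end of the 3′ UTR was also identical in both lists, at 12.0 and 12.3.

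EIF3B, the scaffold subunit that carries the RNA-binding module, had the same 598 nt 3′ UTR peak in both lists (chr7:2380148-2380745). This peak had fold enrichments of 12.0 and 15.5 and scores of 783 and 582. In DF2 siRNA only, it had another peak at its 5′ end (chr7:2354086-2354955, 200 nt in 2 blocks, 5′ UTR and coding). That one had a fold enrichment of 14.5 (percentile 40.6), a −log10 FDR of 2.83 and a score of 58. It was the single shared gene with more peaks in DF2 siRNA than in control.

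EIF3F, a subunit with an MPN domain, showed the most peaks of any factor in control, and all its peaks in either list were in the 3′ UTR. The control list held 4, at chr11:7998240-7998839, 7999440-7999839, 8000040-8000639 and 8000840-8001239. In that order their fold enrichments were 18.3, 14.1, 32.9 and 7.31. The DF2 siRNA list held the middle pair, at 5.76 and 10.9. Their scores were low, 11 to 76 in control and 6 and 15 in DF2 siRNA, although the −log10 values reached 11.3 and 4.003.

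EIF3J, a loosely bound subunit that helps load the small subunit, was the single shared gene whose best peaks in both lists had no base in common. Its 5′ peak (chr15:44537057-44551497 in control, 600 nt; 400 nt in DF2 siRNA) had fold enrichments of 10.5 and 12.7, with −log10 values of 1.51 and 2.14 and scores of 137 and 63. Blocks of that 5′ peak reached 55.9% of the RefSeq span in control and 53.2% in DF2 siRNA, introns included. The 3′ UTR peak of EIF3J (chr15:44561488-44561887, 400 nt) was in control only, at 22.1 (percentile 52.2), with a −log10 p of 4.57 and a score of 535. The divergent transcript at the same start, listed as EIF3J-AS1 (EIF3J-DT in RefSeq), had a wide non-coding peak in both lists. Its values were 35.5 (1600 nt, chr15:44534540-44536523, −log10 p 11.9, score 100, percentile 68.7) and 13.2 (1800 nt, score 26).

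EIF3L had the same 400 nt peak in both lists, labelled coding and non-coding RNA, at 17.1 and 13.2 with scores of 1114 and 503. The interval shares bases with a peak listed under RP5-1014D13.2, so those reads cannot be assigned to EIF3L alone. The other EIF3 genes, EIF3C, EIF3D, EIF3E, EIF3G, EIF3H, EIF3I, EIF3K, EIF3M and the EIF3C copy EIF3CL, had no peak in either list. For EIF3C and EIF3CL, which are near-identical, the sources used here do not say how reads that match both were treated.

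The class called cap complex takes in EIF4A, EIF4B, EIF4E, EIF4G, EIF4H and genes of related name, whatever their exact role. Of its 13 genes, 6 had a peak: EIF4E, EIF4E2, EIF4ENIF1, EIF4G1, EIF4G2 and EIF4G3. EIF4G1, the scaffold that bridges EIF4E, EIF4A and EIF3, had 2 strong peaks in both lists. The one at its 3′ end (chr3:184332081-184335301 in control, 600 nt; 800 nt in DF2 siRNA) had fold enrichments of 60.8 and 89.3, at percentiles 84.9 and 96.0. Its −log10 values were 13.5 and 20.2, and its scores of 7030 and 4981 stood at percentiles 99.8 and 99.9.

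The internal EIF4G1 peak, chr3:184321522-184322379, had the same 600 nt in both lists, with fold enrichments of 37.7 and 47.1 and scores of 5146 and 2589. It is labelled coding, stop codon and 3′ UTR, yet its midpoint lies at 34.8% of the RefSeq span. EIF4G3, a paralog of EIF4G1, had a coding and stop codon peak at 29.5 in control (800 nt) and 22.6 in DF2 siRNA (600 nt, score 154). A 3′ UTR peak of EIF4G3 was in control only (chr1:20806888-20807287, 400 nt), at 9.29 with a −log10 p of 1.44, a score of 100 and percentile 15.3.

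EIF4G2, also called DAP5, a relative that lacks the EIF4E binding site, had 1 peak in DF2 siRNA only. That peak covers its RefSeq start (chr11:10808711-10809110, 400 nt, 5′ UTR) with a fold enrichment of 10.5 (percentile 23.9), a −log10 FDR of 1.41 and a score of 187 (percentile 71.8). No peak of EIF4G2 was listed in control.

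EIF4E, the protein that binds the cap, had a peak over its start in both lists, 800 nt in control (chr4:98929036-98929837) and 200 nt in DF2 siRNA (chr4:98929036-98929237). The fold enrichments were 22.1 and 12.3, the −log10 values 4.72 and 2.08 and the scores 328 and 75. The control peak reached 704 bases, and the DF2 siRNA peak 104 bases, upstream of the RefSeq start. Their label includes coding and stop codon.

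EIF4E2 (4EHP), a cap-binding protein known as a repressor of translation, had 3 peaks in control and none in DF2 siRNA. The peak over its start (chr2:232550452-232550912, 400 nt, 5′ UTR and coding) had a fold enrichment of 21.0 (percentile 50.3), a −log10 p of 4.74 and a score of 147. The second (chr2:232556477-232557608, 200 nt, coding and stop codon) had 14.3, a −log10 p of 3.03 and a score of 87. The third (chr2:232574306-232581267, 400 nt, coding, stop codon and 3′ UTR) had 11.6, a −log10 p of 1.84 and a score of 103. EIF4E2 was the single control-only gene with more than 1 peak.

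EIF4ENIF1, which carries EIF4E into the nucleus and to mRNA decay bodies, had the same 400 nt stop codon peak in both lists, at 20.7 and 24.1. The helicase subunits EIF4A1 and EIF4A2, their relative EIF4A3, and the helicase cofactors EIF4B and EIF4H had no peak. The cap-binding paralogs EIF4E3 and EIF4E1B had none either.

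EIF5A, the hypusine-bearing factor that relieves stalled ribosomes, had the same 200 nt 5′ UTR peak in both lists (chr17:7307409-7307608). The fold enrichments were 11.2 (percentile 23.9) and 13.2 (percentile 35.9), the −log10 values 1.81 and 2.56 and the scores 116 and 60. This peak lies upstream of one of the gene's RefSeq starts. EIF6, EIF5A2 and EIF5AL1 had no peak.

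**Figure D3:**
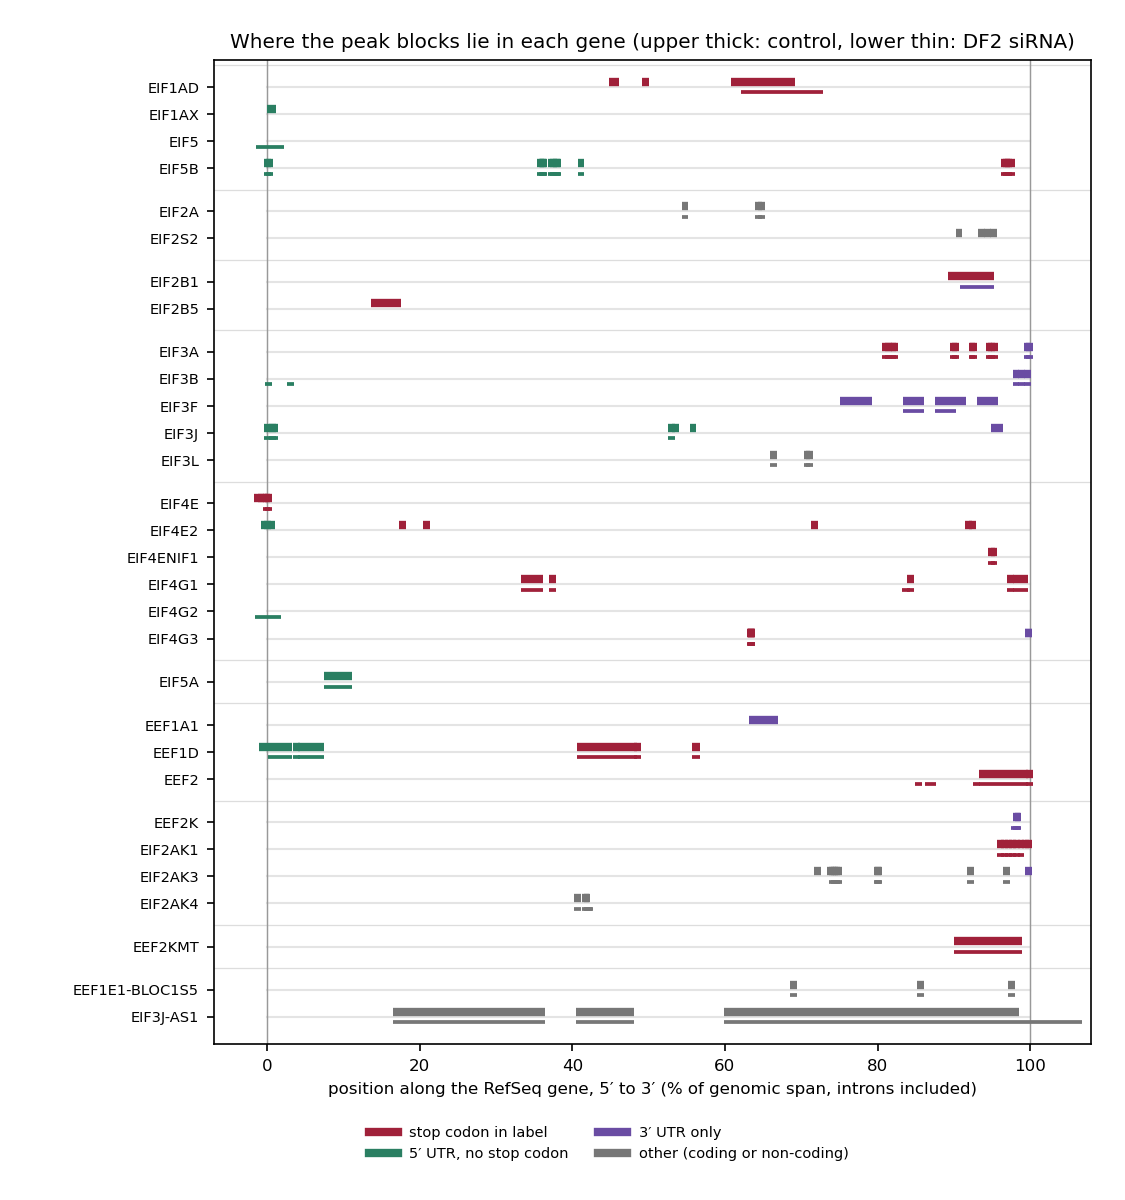
Blocks of each member peak along its RefSeq gene from the 5′ end (0%) to the 3′ end (100% of the genomic span, introns included), coloured by the deposited feature label, with control above (thick) and DF2 siRNA below (thin). Very short blocks are widened so that they can be seen. The stop codon labels of EIF4E, EIF2B5 and the internal EIF4G1 peak lie toward the 5′ end.

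The class called elongation takes in the EEF1 and EEF2 genes by name, EEF1E1 among them, whatever their exact role. A peak was listed for 3 of its 7 genes, EEF1D, EEF2 and EEF1A1. EEF1D, the exchange factor subunit that reloads EEF1A with GTP, had the highest fold enrichment of the factors in both lists. Its main peak on chromosome 8, with 1600 nt in 9 blocks labelled 5′ UTR, coding and stop codon, had 68.6 (percentile 88.1) in control and 100.2 (percentile 97.2) in DF2 siRNA. The −log10 values were 18.4 and 29.0 and the scores 1016 and 591. Its 5′ UTR peak had 33.9 (1400 nt, −log10 p 7.999, score 620) and 33.5 (1200 nt, −log10 FDR 8.09, score 221). In control that peak reached 190 bases upstream of the RefSeq start of the gene, which was not among the start windows used above.

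EEF2, the translocase that moves the ribosome by a codon, had a 3′ end peak in both lists (chr19:3976056-3976682 in control, 627 nt; to 3977429 in DF2 siRNA, 827 nt). It carried the highest score of the factors in control, 7938 (percentile 99.9), and 4337 (percentile 99.9) in DF2 siRNA. Its fold enrichments of 29.1 and 37.8 stood at percentiles 61.7 and 78.2 only, with −log10 values of 4.34 and 6.13.

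EEF1A1, which brings aminoacyl-tRNAs to the ribosome and is among the most abundant mRNAs of most cells, had 1 control peak (chr6:73517498-73517697, 200 nt, 3′ UTR). Its fold enrichment was 11.0 (percentile 22.98), its −log10 p 1.49 and its score 342 (percentile 68.3). EEF1A2, EEF1B2, EEF1G and EEF1E1 had no peak. EEF1A1 and EEF1D have many processed copies, and the sources used here do not say how reads shared with them were counted. A peak listed under EEF1E1-BLOC1S5, a read-through name, lay outside EEF1E1 and shared bases with a BLOC1S5 peak, at 23.2 and 12.4.

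The kinases that switch these factors had the highest share of marked genes among the 9 role classes, 4 of 5, all in both lists (interval 28.4 to 99.5%). The class holds only 5 genes, and the 42.2% of all RefSeq protein-coding genes lies within that interval. EIF2AK1 (HRI), the kinase of EIF2 that responds to heme and mitochondrial stress, had a stop codon peak of 1550 nt in control and 1200 nt in DF2 siRNA (chr7:6022244-6023793 in control). The fold enrichments were 55.3 (percentile 82.3) and 33.9 (percentile 74.7), the −log10 values 16.0 and 9.13 and the scores 324 and 145.

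EIF2AK3 (PERK), the EIF2 kinase of the endoplasmic reticulum, had a coding peak of 10 blocks (chr2:88558955-88576677, 1200 nt) at 50.9 in control and of 8 blocks (1000 nt) at 41.0 in DF2 siRNA. Both stood near percentile 80, at 80.0 and 80.4, with −log10 values of 12.7 and 10.1 and scores of 1280 and 369. This was the only member peak labelled coding alone in either list. A 200 nt 3′ UTR peak was in control only (chr2:88556775-88556974), at 11.3 with a −log10 p of 2.25, a score of 52 and percentile 24.9.

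EIF2AK4 (GCN2), the kinase that senses uncharged tRNA, had a coding and 3′ UTR peak at 9.75 in control (400 nt, score 150) and 26.0 in DF2 siRNA (600 nt, score 179). EEF2K, the kinase that inactivates EEF2, had a 3′ UTR peak at 10.9 (400 nt) and 15.7 (600 nt). EIF2AK2 (PKR), the kinase activated by double-stranded RNA, had no peak. EEF2KMT, which methylates EEF2, was the single methyltransferase gene of 5 with a peak under its RefSeq symbol. The peak was the same 1200 nt of stop codon and 3′ UTR in both lists (chr16:5084432-5085631). Older names of the other methyltransferase genes were not searched. Its values were 49.2 (percentile 78.9, −log10 p 17.8, score 251) and 32.7 (percentile 73.4, −log10 FDR 9.998, score 84).

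Where a shared gene had unequal numbers of peaks, control had more in 4 cases, EIF3F (4 and 2), EIF3J, EIF2AK3 and EIF4G3 (2 and 1 each). DF2 siRNA had more in 1, EIF3B (2 and 1), and 18 genes had equal numbers. Genes with 2 or more peaks were 9 of 28 in control (32.1%) and 6 of 25 in DF2 siRNA (24%), against 38.9% and 37.4% of all genes. The 5 control peaks of shared genes that no DF2 siRNA peak overlapped, 2 of them in EIF3F, were all labelled 3′ UTR only. Of all 2094 such control peaks, 28.3% had that label.

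As a family, the peaks carried the stop codon label about as often as other peaks did. In control 16 of 40 peaks had it (40%, 24.9 to 56.7%), and in DF2 siRNA 12 of 31 (38.7%, 21.8 to 57.8%), against 42.7% and 43.7% of all peaks. Peaks in the 3′ UTR only were 11 in control (27.5%, 14.6 to 43.9%) and 6 in DF2 siRNA (19.4%, 7.45 to 37.5%), against 14.1% and 13.4%. Without EIF3F, which gave 4 of the 11, the control share was 7 of 36, or 19.4%. The 5′ UTR without stop codon was named in 6 peaks of the control list (15%) and in 7 of the other (22.6%), against 15.8% and 17.4%.

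A stop codon label did not always mark the end of the gene. In 5 of the 16 control peaks with this label, those of EIF4E, EIF4G1 (internal), EIF2B5, EIF4E2 (the second) and EEF1D, the midpoint lay nearer to the RefSeq start than to the RefSeq end. In DF2 siRNA it did so in 3 of 12, in EIF4E, EIF4G1 and EEF1D. The shares were 31.2% and 25%, against 19.0% and 19.1% of all stop codon peaks with a RefSeq gene. Positions were measured along the genome with introns, and the sources used here do not say which transcripts gave the labels.

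The factor peaks ranked higher by score than by fold enrichment. In control their fold enrichment had a median of 21.5 (quartiles 11.9 and 34.3), against 20.8 for all peaks. In DF2 siRNA the median was 15.9 (quartiles 12.95 and 33.1), against 17.7. Their median score was 324 and 179, against 143 and 74. Above their list's median by score lay 26 of 40 peaks in control (65%) and 20 of 31 in DF2 siRNA (64.5%), and by fold enrichment 21 (52.5%) and 15 (48.4%). Peaks of mitochondrial ribosomal protein genes showed median scores of 435.5 (control) and 229 (DF2 siRNA), and those of cytosolic ribosomal protein genes 98 and 128. The median width of the factor peaks, 599 and 600 nt, was that of all peaks (600 nt in both lists).

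**Figure D4:**
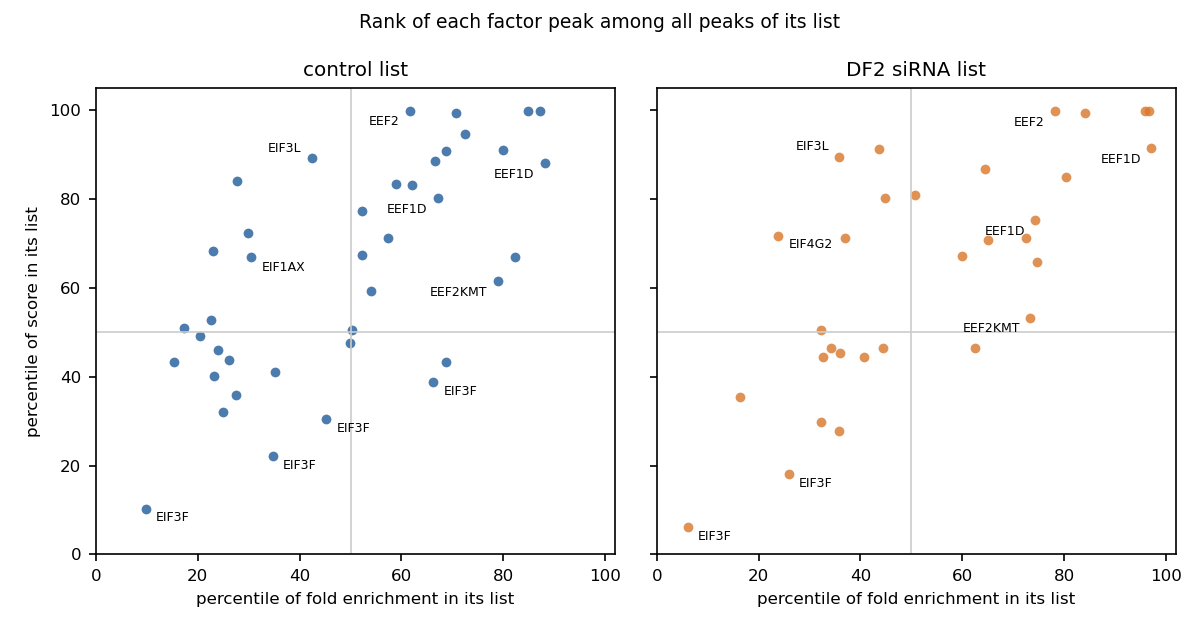
Percentile of each member peak among all peaks of its list, by fold enrichment (horizontal) and by score (vertical), for control (left) and DF2 siRNA (right), with a few genes named. EEF2 stands at score percentile 99.9 with fold enrichment percentiles of 61.7 and 78.2, and the EIF3F peaks lie at the low end by score.

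A further list held 56 regulators and partners of these factors whose names the rule does not take. Of these, 28 were found in both lists, 7 in control alone, 3 in DF2 siRNA alone and 18 in neither. The 7 and the 3 are 20% of the 35 in the control list and 9.68% of the 31 in the DF2 siRNA list. Both shares are near the 20.3% and 7.08% of all genes. The groups of the list are small and were chosen with earlier results known, and no test was made. The 3 found in DF2 siRNA alone were in the largest group of the list, the 18 regulators of EIF4E and of poly(A)-binding protein. EIF4EBP1, which sequesters EIF4E, had a fold enrichment of 12.2, PAIP1, a partner of poly(A)-binding protein, had 11.2, and MKNK1, a kinase of EIF4E, had 11.7. Of that group, 8 were in both lists. The highest in control were RPTOR, the scaffold of mTORC1 (120 in control, 163 in DF2 siRNA), TSC1, an inhibitor upstream of it (116 and 126), and RPS6KB1, an S6 kinase (115 and 26.6).

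The circuit around EIF2 phosphorylation had 6 of 7 genes in both lists, while 42.2% of all RefSeq protein-coding genes had a peak in either. NCK1 (70.8 and 41.2), PPP1R15B, a phosphatase subunit for EIF2 (69.6 and 55.2), and the stress transcription factor gene DDIT3 (34.1 and 30.1) led in control. In scanning and reinitiation 4 of 7 genes were shared, led by ABCF1 (71.9 and 63.0), TPT1 (48.4 and 39.4) and DDX3X (23.7 and 18.4). MCTS1 was in control only, at 3.58 with a score of 3.

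Termination and recycling had 3 of 6 genes in both lists: PELO, a ribosome rescue factor (111 and 63.9), and the release factor genes ETF1 (59.2 and 29.0) and GSPT1 (54.7 and 24.7). HBS1L, the partner of PELO, was in control only, at 13.7. Of the 8 enzymes that modify EEF2 or EIF5A, 4 were shared and 2 were in control only. The diphthamide genes DPH1 (99.3 and 58.0) and DPH7 (42.8 and 55.6) led, followed by the control-only DPH5 (20.3) and DPH3 (19.4).

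Of the selenocysteine pair, EEFSEC was in both lists (32.0 and 26.3) and SECISBP2 in control only (9.37). Among the 8 mitochondrial factors, TSFM (120 and 79.0) and MTIF3 (15.2 and 11.0) were shared, and MRRF (18.0) and GFM1 (11.8) were in control only.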

How the data were processed

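The authors deposited 2 lists of m6A peaks, 1 per condition for both immunoprecipitates, per the labels. The submitters' processing notes name HISAT2 and hg38. For the version, peak caller, input scaling, annotation and use of strand: not given in the sources used here. Per the file headers, each peak has a deposited ratio, its fold enrichment. The deposited −log10 value belongs to a p-value (control) or an FDR (DF2 siRNA), per the file headers. The authors' score is a whole number without a stated meaning. Most peaks are a multiple of 200 nt long. Library depth is unknown, and whether these values depend on it or on how bins were joined was not tested.

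Peaks were read as exonic blocks, counted from 1. On the minus strand the deposited block sizes run in transcript order while block starts run in genome order, so the sizes were reversed. The last block then reached the peak end in all 7046 control and 5928 DF2 siRNA rows with several blocks, and in 3128 and 3068 as listed. Peaks overlapped if they had at least 1 base in common on 1 strand. Percentiles are ranks within a list. Counting was tested on simulated peaks. Gene spans and start windows are RefSeq GRCh38.p14, matched by symbol or a unique older name within 100000 bp. Counts of factor and ribosomal protein genes with a peak used the listed name only. Intervals are exact binomial (Clopper-Pearson, 95%).

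The members, role classes and partner list were chosen with earlier results of these data known. Values are given in most detail for members in 1 list only, for the 8 highest by fold enrichment per list and where peak numbers differ. The same holds where a peak is labelled 5′ UTR without stop codon and where best peaks share no base. Not every interval, percentile or −log10 value of these members is printed. The other members are given more briefly within their class. Partners named are those in 1 list only and the 3 highest in control per group. Alternatives were stricter or equal list limits, other overlap rules, 2 peaks per gene, narrow or single-label peaks and other member rules. Sequence motifs within peaks, protein identity between paralogs and values per library were not analysed here. Software was Python 3.11.15 with matplotlib 3.10.9, pandas 2.3.3, numpy 2.4.6 and scipy 1.17.1.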

Additional observations from a re-analysis of the deposited data

How the results depend on the processing

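The number of factor genes in both lists, 23, was 11 in the upper 50% of each list by fold enrichment, 13 with p or FDR limits 100 times smaller, 5 when 2 peaks per gene were required, and 14 with factor subunits and paralogs only, an alternative chosen after seeing the data. Genes in DF2 siRNA only, 2, became 1 with the smaller limits and 1 when 2 peaks were required. Genes in control only, 5 beside 23 shared, were 7 beside 11 in the upper 50% and 6 beside 13 with the smaller limits. When 2 peaks were required they were 4 beside 5, so their share was higher under these limits. The share of all genes under the same limits is not given here. The stop codon share of control peaks, 40%, was 57.1% in the upper 50%, 21.1% for peaks of at most 400 nt and 0% for peaks with 1 label. That of DF2 siRNA peaks, 38.7%, was 66.7% in the upper 50%, 62.5% with the smaller limits, 15.4% for peaks of at most 400 nt and 0% for peaks with 1 label. Fewer peaks or genes enter each of these. No member peak had the stop codon label alone, so the 0% for peaks with 1 label follows from the labels and is no check of the share. Stop codon shares of all peaks under the same limits are not given here, so whether other peaks moved likewise cannot be seen. Overlap shares stayed at 63.3 to 73.7% and 86.4 to 93.8%, within the intervals of the main values. The smaller limit is not the same in both lists, since one holds p-values and the other FDRs. No paired analysis was possible because each condition has 1 list. Unknown depth limits every statement that a peak was in 1 list only.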

Other observations

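The member rule leaves out names that end like pseudogenes, and these held peaks too. EIF4EBP1, which is no pseudogene, had 1 peak in DF2 siRNA only, 273 nt of 3′ UTR at a fold enrichment of 12.2, with a score of 317 (percentile 82.5). Copies of EEF1D were in both lists: EEF1DP5 at 33.5 in control and 10.4 in DF2 siRNA, and EEF1DP2 at 20.1 and 18.5. Copies of EEF1A1 were in control only, EEF1A1P19 with 19.95 and 6.27 and EEF1A1P3 with 4.83, as was EEF1E1P1 with 5.83. The scores of all these pseudogene peaks were low, 6 to 45. Reads of a copy and of its parent gene cannot be told apart in these lists.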
